A study of Pan troglodytes with 8 samples.

Results

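Transcripts of 10 primary microcephaly genes were followed through 4 cell populations sorted from chimpanzee cerebral organoids. The genes, taken by symbol from a list of known disease genes, were ASPM, WDR62, MCPH1, CDK5RAP2, CENPJ, STIL, CEP135, CEP152, KNL1 and CIT. They are 10 of 60583 named rows of a table of read counts on the chimpanzee genome (build panTro6). All 10 had a row in that table and in a companion table on the human genome (build hg38), and all 10 passed the filter on low counts. The list was not chosen by the values, but it was drawn up with earlier results of these data known.

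The populations were neurons labelled BCL11B+ (N), basal intermediate progenitor cells (bIP), basal radial glia (bRG) and apical radial glia (aRG), with 2 libraries each. All came from whole organoids of the chimpanzee induced pluripotent stem cell line SandraA, untreated, collected at about week 8 of culture. Each library was made from total RNA of 10000 sorted cells by a SMART-seq2 type workflow, which primes at the poly(A) tail and does not mark the strand. A single line stands for the species. The labels give the same culture scheme to every sample and do not tie the numbers 1 and 2 to cultures. The p-values therefore cover only the spread between these 2 libraries, and that may be technical.

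Primary microcephaly is an inherited condition in which the brain, and above all the cerebral cortex, is small at birth. Most of its genes encode proteins of the centrosome, the spindle pole, the kinetochore or the midbody, structures that separate chromosomes and cut a dividing cell apart. Apical radial glia divide at the ventricle and basal radial glia away from it, intermediate progenitors divide a limited number of times, and neurons have left the cell cycle. The comparison therefore asks which of these transcripts were lower once cells had stopped dividing and which were still present in neurons.

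Levels are given as CPM, read counts relative to the library's total after TMM scaling, a correction for differences in RNA composition. They depend on transcript length, so they are compared between populations and not between genes. Library totals ran from 24649971 to 33245892 counts. Known markers set N, bIP and radial glia apart. EOMES, which marks intermediate progenitors, had 1357 and 1540.3 CPM in bIP and at most 184 elsewhere. SOX2, a stem cell factor, was at 477 to 958 in radial glia of both kinds and at most 83.2 elsewhere. BCL11B was at 488 and 589.6 CPM in N, and was also at 286 and 348 in bIP, a difference that did not pass the test. PAX6 averaged 10.7 CPM in N, 111 in bIP, 161 in bRG and 193 in aRG. Of these 4 genes 0 were called between bRG and aRG, so they do not tell those populations apart. A list of 12 transcripts of dividing cells, MKI67 and TOP2A among them, summed to 87.4 and 79.2 CPM in N, 297 and 434 in bIP, 1528 and 1520.2 in bRG and 3845 and 3519 in aRG. The aRG libraries also held transcripts of other tissues. A list of 8 choroid plexus genes summed to 968 and 3304 CPM there against 48.7 to 84.1 in the 6 other libraries. TTR alone gave 819 and 3092 of this, while KCNJ13 averaged 10.6 CPM in aRG and 8.62 in N. A list of 12 mesenchymal, vascular and immune genes summed to 412 and 2043 CPM in aRG against 35.3 to 369. COL1A1 gave 155 and 941 of this. Vascular and immune genes of the list were mixed: CLDN5 had its highest mean in aRG, CDH5 and PECAM1 their lowest there, and CX3CR1 and PTPRC their highest in bIP. At most 1 gene of the first list was at 0 in any library (CLIC6 in N replicate 1 and HTR2C in bIP replicate 1), and AIF1 of the second was listed at 0 in all 8. The part of these cells in the differences from aRG, or in those from bRG, was not tested.

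Between N and aRG, 8 of the 10 genes fell, and 2, CDK5RAP2 and MCPH1, did not pass the test. The largest falls were of ASPM and KNL1, which were 60.1 and 49.7 times lower in N. The 6 others that fell were 3.75 to 12.3 times lower. With either aRG library left out, 8 of the 10 were again lower. In edgeR's quasi-likelihood test over 35382 genes, 4.80% of all genes were lower in N and 4.87% were higher at an adjusted p under 0.05, and 0 of the 10 were higher (0 also at an unadjusted p under 0.05, and 0 by DESeq2). The median log2 fold change of the 10 was −2.59, where that of all genes tested was −0.08. In such bulk samples, fewer dividing cells in a population and less of the RNA in each cell cannot be told apart.

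**Figure D1:**
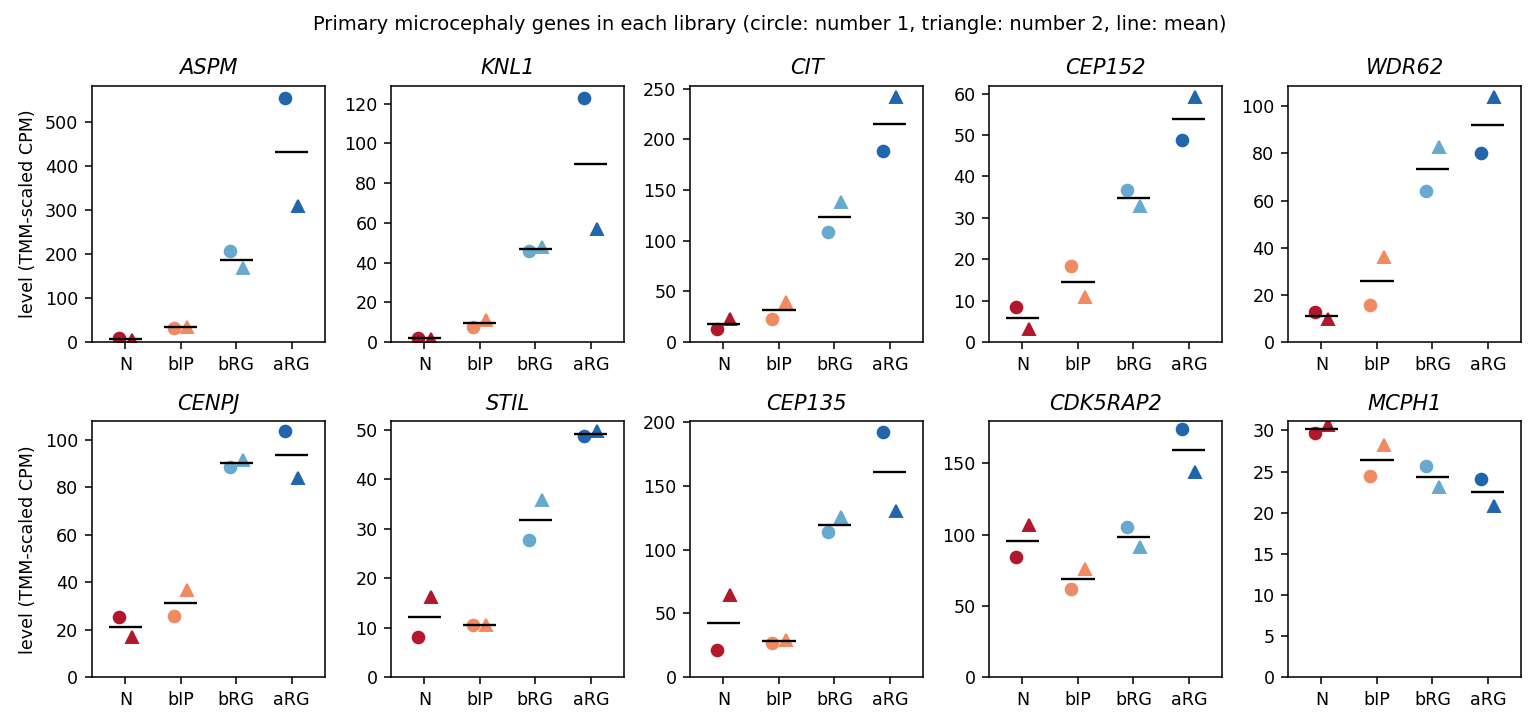
Levels of the 10 genes in TMM-scaled CPM (vertical axis from 0, different for each gene) in N, bIP, bRG and aRG, where circles and triangles are the libraries numbered 1 and 2 and lines are means of 2. ASPM steps down at each population from aRG to N, CDK5RAP2 is lowest in bIP, and MCPH1 lies between 20.9 and 30.6 CPM in all 8 libraries.

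Spindle pole, kinetochore and midbody genes made up 4 of the 5 largest falls. ASPM encodes a protein that holds microtubule minus ends at the spindle pole. It was at 9.32 and 5.05 CPM in N, 32.1 and 35.2 in bIP, 207 and 167 in bRG, and 555 and 310.4 in aRG. No pair of populations overlapped, and the order from low to high was N, bIP, bRG and aRG. In N its log2 fold change against aRG was −5.91, SE 0.42, adjusted p = 5.24e-06, with −5.90 within libraries numbered 1 and −5.94 within those numbered 2.

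KNL1 encodes the kinetochore scaffold that recruits the spindle checkpoint kinases. Its levels were 2.13 and 1.47 CPM in N, 7.73 and 11.3 in bIP, 45.8 and 47.9 in bRG, and 123 and 56.8 in aRG. The N libraries rested on only 55 and 34 reads, and the aRG libraries differed from each other by 2.17 times, with the lower one still above both bRG libraries. The fall in N against aRG was −5.64, SE 0.47, adjusted p = 1.77e-05. Counted on the human genome it was smaller, at −4.94 (adjusted p = 6.57e-05), and without aRG replicate 1 it was −5.05, adjusted p = 4.56e-06.

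CIT encodes citron kinase, which acts at the midbody when daughter cells separate. Its levels stood at 12.7 and 22.3 CPM in N, 22.8 and 40.0 in bIP, 108 and 138 in bRG, and 189 and 242 in aRG. All populations were apart, but N and bIP only just, with the higher N library at 22.3 CPM and the lower bIP library at 22.8. The log2 fold change in N against aRG was −3.62, SE 0.38, adjusted p = 8.96e-05.

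WDR62 encodes a spindle pole protein that responds to Aurora A. It was at 12.8 and 9.58 CPM in N, 15.6 and 36.2 in bIP, 64.1 and 82.7 in bRG, and 80.0 and 104 in aRG. The ranges of bRG and aRG overlapped, and the bIP libraries differed by 2.33 times. It fell in N against aRG (−3.04, SE 0.40, adjusted p = 0.000438).

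The genes of centriole duplication fell as well, and kept a larger share of their aRG level than ASPM or KNL1. CEP152 encodes the docking platform for PLK4, the kinase that starts a new centriole. Its levels were 8.39 and 3.02 CPM in N, 18.3 and 10.9 in bIP, 36.8 and 32.9 in bRG, and 48.8 and 59.1 in aRG. No ranges overlapped, and the N libraries, resting on 217 and 70 reads, differed by 2.78 times. The fall in N against aRG was −3.24, SE 0.48, adjusted p = 0.000867, with −2.54 within libraries numbered 1 and −4.29 within those numbered 2. Without N replicate 1 it was −4.16, adjusted p = 0.000162.

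STIL encodes the PLK4 substrate that brings SASS6 to the new centriole. It was at 8.16 and 16.2 CPM in N, 10.6 and 10.6 in bIP, 27.9 and 35.9 in bRG, and 48.9 and 49.7 in aRG. Here N and bIP overlapped, and both lay below bRG, which lay below aRG. It fell in N against aRG (−2.02, SE 0.38, adjusted p = 0.00419), by more in number 1 than in number 2 (−2.58 within libraries numbered 1 and −1.62 within those numbered 2).

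CENPJ encodes the protein, also called CPAP, that adds tubulin to the growing centriole wall. Its levels were 25.4 and 17.2 CPM in N, 25.7 and 36.9 in bIP, 88.5 and 91.7 in bRG, and 104 and 84.1 in aRG. The radial glia of both kinds overlapped and so formed a high group, with bIP and N well below it and almost touching (25.4 CPM in the higher N library, 25.7 in the lower bIP library). The log2 fold change in N against aRG was −2.14, SE 0.31, adjusted p = 0.000769.

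CEP135 encodes a structural protein of the centriole. It stood at 21.3 and 64.5 CPM in N, 26.8 and 29.2 in bIP, 113 and 126 in bRG, and 192 and 130.0 in aRG. The N libraries were 3.03 times apart and enclosed both bIP libraries, so that the position of N depends on which library is read. Its fall in N against aRG was −1.91, SE 0.43, adjusted p = 0.0125, with −3.17 within libraries numbered 1 and −1.01 within those numbered 2. Without N replicate 2, the higher one, it was −2.92, adjusted p = 0.000284, without N replicate 1 it was −1.32, adjusted p = 0.0342, and when only N and aRG were fitted the call was lost (adjusted p = 0.0548).

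CDK5RAP2 encodes a protein of the pericentriolar material that activates the gamma-tubulin ring complex, the template from which microtubules grow. Its levels were 84.5 and 107 CPM in N, 61.9 and 76.0 in bIP, 106 and 91.5 in bRG, and 174 and 144 in aRG. The lowest population was bIP, N and bRG overlapped, and aRG was highest. N averaged 95.6 ± 15.7 CPM and aRG 159 ± 21.1 (SD, n = 2 each), so that N held 60.1% of the aRG mean. The log2 fold change in N against aRG was −0.74, SE 0.26, adjusted p = 0.107, with a 95% interval of −1.30 to −0.17 that lay below 0. It was called lower once genes had to reach 5 CPM in at least 2 libraries (adjusted p = 0.0383).

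MCPH1 encodes microcephalin, which restrains condensin II so that chromosomes do not condense too early, and takes part in the response to DNA damage. It was at 29.7 and 30.6 CPM in N, 24.5 and 28.2 in bIP, 25.6 and 23.1 in bRG, and 24.1 and 20.9 in aRG. Both N libraries were above all others, and the ranges of bIP with bRG and of bRG with aRG overlapped. MCPH1 averaged 30.1 ± 0.695 CPM in N and 22.5 ± 2.29 in aRG (SD, n = 2 each). This difference did not pass the test (0.42, SE 0.30, adjusted p = 0.468), and its 95% interval of −0.23 to 1.08 held 0. The value was above 0 under all 14 other settings tried for this comparison, at 0.30 to 0.46.

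By the test in N against aRG and a level of at least 50% of the aRG mean in N, the genes fell into 8 lost in neurons and 2 kept, CDK5RAP2 and MCPH1. Expressed as a percentage of the aRG mean, the 10 genes formed a wide range in neurons. ASPM was at 1.66% and KNL1 at 2.00%, CIT, CEP152 and WDR62 at 8.13%, 10.6% and 12.1%, and CENPJ, STIL and CEP135 at 22.7%, 24.7% and 26.6%. The 12 transcripts of dividing cells were at 0.553% (MKI67, the proliferation antigen) to 16.8% (CCNA2, an S-phase and mitotic cyclin) of their aRG mean, with a median of 1.91%. On these means CENPJ, STIL, CEP135, CDK5RAP2 and MCPH1 were above the highest of these 12 in N. For STIL and CEP135 this rested on N replicate 2. In N replicate 1, STIL was at 16.6% and CEP135 at 13.2% of their aRG means, under the 17.7% of the highest dividing-cell transcript, and in N replicate 2 they were at 32.9% and 40.1%, above its 15.9%. CENPJ, CDK5RAP2 and MCPH1 were above the highest in both N libraries. In bIP the dividing-cell transcripts stood at 5.36% to 22.6%, while the means of CEP152, WDR62, CENPJ, CDK5RAP2 and MCPH1 were above that range at 27.0%, 28.2%, 33.4%, 43.3% and 117%. WDR62 was at 16.9% in bIP replicate 1, under the highest dividing-cell transcript there (22.3%), and at 39.4% in bIP replicate 2. CEP152 was at 33.9% in bIP replicate 1 and at 20.1% in bIP replicate 2, under the highest there (26.1%). In bRG the dividing-cell transcripts stood at 35.4% to 52.1%, ASPM and KNL1 at 43.3% and 52.1%, and the 8 other microcephaly genes at 57.3% to 108%. CIT was at 50.4% in bRG replicate 1, under the highest dividing-cell transcript there (53.7%), and at 64.3% in bRG replicate 2. These percentages are descriptions of means of 2 libraries and share the aRG libraries.

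**Figure D2:**
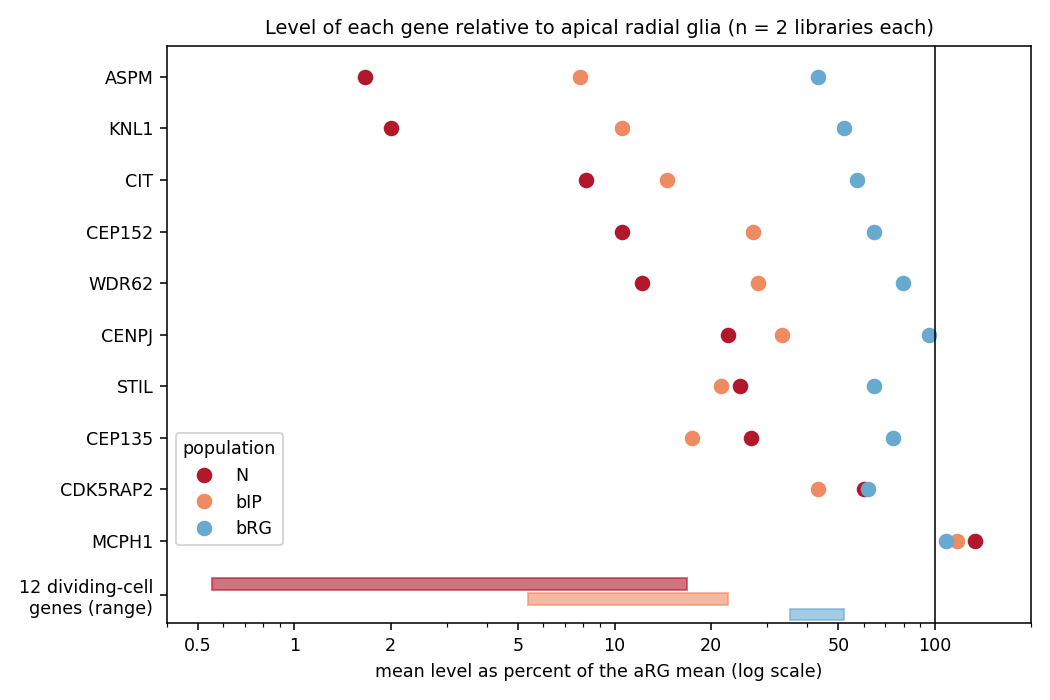
Mean level of each gene in N, bIP and bRG as a percent of its mean in aRG (horizontal axis, log scale; points are means of 2 libraries, the line marks 100%). Coloured bars at the foot span the 12 dividing-cell transcripts in the same populations; in N they reach 16.8%, which ASPM, KNL1, CIT, CEP152 and WDR62 do not pass.

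Most of the genes were lower in intermediate progenitors than in apical radial glia, in a comparison that shares its aRG libraries with the one above. Against aRG, 9 of the 10 genes fell in bIP, where 1.50% of all genes tested were lower. The median log2 fold change of the 10 was −2.05, against 0.05 over all genes. The change of ASPM on the log2 scale was −3.68, SE 0.37, adjusted p = 0.000539, and that of KNL1 was −3.24, SE 0.41, adjusted p = 0.00148. A list of 8 neuron genes moved with this comparison, at 3080.2 and 4035 CPM in bIP and 756 and 1108 in aRG in sum. Of these 8, 6 were called higher in bIP, where 1.34% of all genes were higher. The same list summed to 5392 and 5259 CPM in N and 1125 and 1919.5 in bRG, and the part of neuronal RNA in the bIP values was not tested. Without aRG replicate 1 the change of KNL1 was −2.62, adjusted p = 0.00444, and without bIP replicate 2 that of WDR62 was −2.57, adjusted p = 0.00736. CIT was at −2.78, CEP135 at −2.52, STIL at −2.22, CEP152 at −1.89, WDR62 at −1.83 and CENPJ at −1.58. CDK5RAP2 fell too (−1.21, SE 0.26, adjusted p = 0.0264), and here the groups did not overlap, at 61.9 and 76.0 CPM in bIP and 174 and 144 in aRG. MCPH1 did not pass (0.23, SE 0.30, adjusted p = 0.856; 95% interval −0.43 to 0.88). Single libraries decided several of these calls: the number was 5 without bIP replicate 1, 7 without bIP replicate 2, and 6 without either aRG replicate. CDK5RAP2 and CEP152 lost the call in each of these 4 cases (adjusted p = 0.0503 to 0.213 and 0.0567 to 0.27), WDR62 without bIP replicate 1 or aRG replicate 2, and CENPJ without bIP replicate 1 or aRG replicate 1.

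Between neurons and intermediate progenitors, 2 of the 10 genes fell, ASPM and KNL1, and the 8 others did not pass the test. Of all genes, 1.48% were lower in N than in bIP. ASPM was at 9.32 and 5.05 CPM in N and 32.1 and 35.2 in bIP (−2.23, SE 0.36, adjusted p = 0.00647), and KNL1 at 2.13 and 1.47 in N and 7.73 and 11.3 in bIP (−2.40, SE 0.42, adjusted p = 0.0103). The call of KNL1 was lost without N replicate 2 (adjusted p = 0.0594) and when only the 2 populations were fitted (0.0937). CEP152, WDR62, CIT and CENPJ had log2 fold changes of −1.35, −1.21, −0.84 and −0.56 with adjusted p = 0.163, 0.136, 0.27 and 0.413 in that order. Without N replicate 1 CEP152 was called (−2.27, adjusted p = 0.0171). WDR62 was called without bIP replicate 1 (−1.69, adjusted p = 0.0284) and was at −0.48 without bIP replicate 2. DESeq2, which called 1532 of 31103 genes lower here, called 4 of the 10, adding WDR62 (adjusted p = 0.0426) and CEP152 (0.0409). STIL, CEP135, CDK5RAP2 and MCPH1 had log2 fold changes above 0 of 0.20, 0.61, 0.47 and 0.19, none called. Those of STIL and CEP135 were below 0 without N replicate 2 (−0.37 and −0.39). CDK5RAP2 was higher in N than in bIP in every library, at 84.5 and 107 CPM in N and 61.9 and 76.0 in bIP, with a 95% interval of −0.09 to 1.03.

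Most of the genes were also lower in neurons than in basal radial glia. In N, 7 of the 10 fell against bRG, where 3.39% of all genes were lower. ASPM (−4.70) and KNL1 (−4.70) had the largest changes, followed by CIT (−2.82), WDR62 (−2.71), CEP152 (−2.61), CENPJ (−2.08) and STIL (−1.39, SE 0.37, adjusted p = 0.046). That of KNL1 was −4.07 on the human genome, and that of CEP152 was −3.53, adjusted p = 0.000829 without N replicate 1. STIL lost its call without N replicate 1 (adjusted p = 0.231), without bRG replicate 1 (0.0718) or 2 (0.194), and when only N and bRG were fitted (0.116). CEP135 missed the threshold (−1.48, SE 0.42, adjusted p = 0.0621), although both N libraries lay below both bRG libraries, and was called without N replicate 2 (−2.49, adjusted p = 0.00172) and by DESeq2 (adjusted p = 0.0109). For CDK5RAP2 the groups overlapped, with a log2 fold change of −0.04 and a 95% interval of −0.60 to 0.52. The choroid plexus sum was 48.7 and 71.3 CPM in N and 75.3 and 84.0 in bRG. The mesenchymal, vascular and immune sum was 73.4 and 35.3 in N and 314 and 369 in bRG. Of the 11 genes of this second list that were tested, 6 were called lower in N than in bRG. Of the 8 choroid plexus genes 0 were. The part of such cells in the differences from bRG was not tested.

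Intermediate progenitors and basal radial glia share a basal position in the tissue but differ in fate. In bIP, 5 of the 10 fell against bRG, where 0.574% of all genes were lower: ASPM (−2.48, SE 0.36, adjusted p = 0.00815), KNL1 (−2.30), CEP135 (−2.09), CIT (−1.97) and CENPJ (−1.53). STIL and WDR62 had log2 fold changes of −1.59 and −1.50 with adjusted p = 0.0745 and 0.107, and DESeq2 called both (0.00337 and 0.0118). By DESeq2, 655 of 20269 genes were lower in this comparison. Without bIP replicate 2 WDR62 was called (−2.24, adjusted p = 0.0409). CEP135 lost its call without bIP replicate 1 (adjusted p = 0.147) or 2 (0.165). Without bIP replicate 1 only ASPM was called (adjusted p = 0.0409). CENPJ lost its call when any 1 of the 4 libraries was left out (adjusted p = 0.0706 to 0.228).

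No difference between basal and apical radial glia passed the test in these 10 genes. Of the 10, edgeR and DESeq2 each called 0. Of all genes, 0.00283%, a single gene, were lower by edgeR, and 27 of 26179 by DESeq2. The gene lower by edgeR was TTR, of the choroid plexus list. At an unadjusted p under 0.05, 4 of the 10 were lower in bRG, and so were 1.16% of all genes. For 7 of the 10 both bRG libraries lay below both aRG libraries, which held for 14.1% of all genes tested. ASPM was at 207 and 167 CPM in bRG and 555 and 310.4 in aRG (−1.21, SE 0.34, adjusted p = 0.814, 95% interval −1.95 to −0.47). With no low-count filter it was called (adjusted p = 0.0164). CENPJ had a log2 fold change of −0.06 with a 95% interval of −0.70 to 0.59, and MCPH1 one of 0.12 with −0.54 to 0.77. The KNL1 difference of −0.94 became −0.32 without aRG replicate 1.

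**Figure D3:**
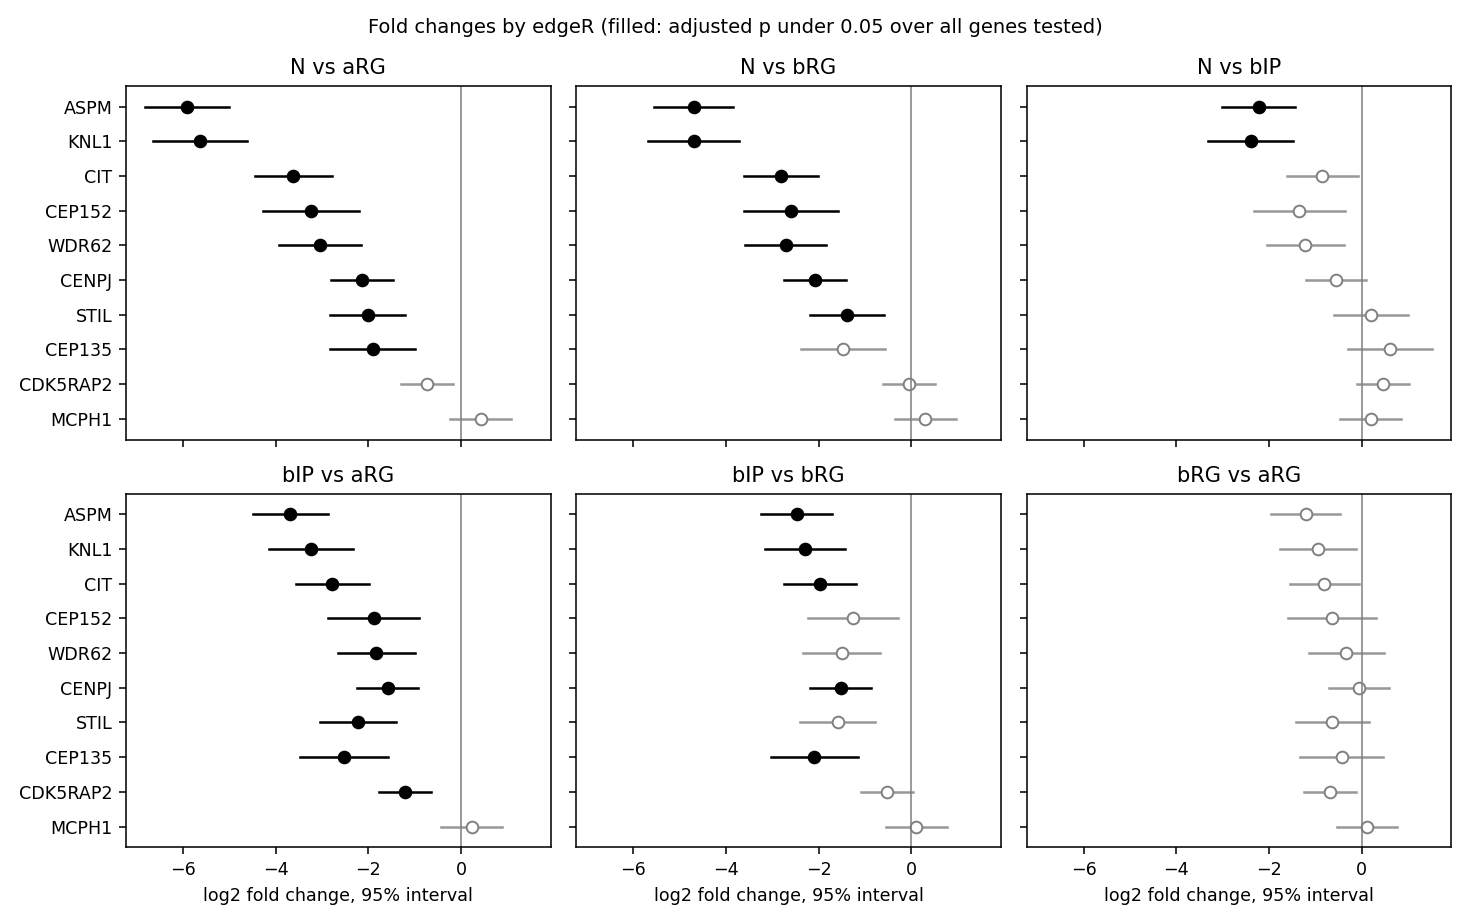
Log2 fold changes of the 10 genes from edgeR with 95% intervals in 6 comparisons (first population over second; filled points have an adjusted p under 0.05 over all genes tested). In N against aRG 8 points are filled, in N against bIP only ASPM and KNL1, and in bRG against aRG none.

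Other transcripts with a like pattern were ranked by Pearson's r of log2(CPM + 1) over the 8 libraries, which share the differences between populations. They were sought among 10433 genes with a mean of at least 10 CPM and a regular symbol, the gene itself excepted. For ASPM they were KIF15, a spindle motor, HMMR, a spindle protein, and DEPDC1 (r = 0.998, 0.997, 0.997). For KNL1 they were DEPDC1, KIF15 and ASPM itself (r = 0.997, 0.996, 0.995). CIT was closest to KIF2C, a kinesin that depolymerises microtubules (r = 0.995), followed by PIF1 and ZNF703. WDR62 was closest to CDC25A, a phosphatase of cell cycle entry, then to FGFR2 and CDT1 (r = 0.992, 0.991, 0.990). CENPJ was closest to DSN1, a kinetochore subunit, then to ETV5 and CDC25A (r = 0.995, 0.993, 0.990). CEP152 was closest to NOTCH1, a receptor of radial glia, ROR2 and GPC4 (r = 0.994, 0.994, 0.993), and STIL to FOXP1, SPAG5 and PSMC2 (r = 0.992, 0.987, 0.986). CEP135 followed CYB5RL, LRATD2 and STIL (r = 0.981, 0.979, 0.974). Among the closest to CDK5RAP2 were NIT1 and KIAA1671 (r = 0.970 and 0.954), and MCPH1 followed SERINC3, TPD52 and ERN1 (r = 0.971, 0.970, 0.970).

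Other genes of the same pathways were read from lists, beside a share of 4.80% of all genes tested that were lower in N against aRG. Of 20 further loci of primary microcephaly, 19 were tested and 9 fell in N against aRG, with 0 higher and a median of −1.41. The smallest adjusted p belonged to BUB1, a checkpoint kinase (−4.95, SE 0.36, adjusted p = 6.36e-06), and KIF14, a kinesin of cytokinesis that binds citron kinase, at 1.89 and 1.17 CPM in N and 102 and 71.6 in aRG (−5.82, SE 0.42, adjusted p = 6.36e-06). LMNB2, a nuclear lamin, was listed at 0 in all 8 libraries on the chimpanzee genome. On the human genome it was at 85.2 and 92.0 CPM in N and 183 and 205 in aRG and fell (−1.13, SE 0.23, adjusted p = 0.00651).

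Partners of the genes with the steepest falls fell for the most part. Of 10 cytokinesis partners of CIT 9 fell, with a median of −4.97, led by AURKB, the Aurora kinase of the midzone (−7.37, SE 0.49, adjusted p = 3.17e-06), and KIF14, which this list shares with the previous one. RHOA, the small GTPase of the contractile ring, did not pass, at 119 and 106 CPM in N and 167 and 199 in aRG (−0.70, SE 0.24, adjusted p = 0.0971). Of 12 kinetochore partners of KNL1 8 fell (median −3.40), with NDC80, which binds microtubules, at 0.967 and 1.04 CPM in N and 86.3 and 85.6 in aRG (−6.42, SE 0.37, adjusted p = 1.79e-06) and NUF2, its partner, at −5.98. MIS12 and NSL1, of the complex that KNL1 sits on, had log2 fold changes of −0.02 and −0.13 with overlapping groups. DSN1, also of that complex, was among the 8 that fell, at 12.4 and 10.3 CPM in N and 59.2 and 53.9 in aRG. PMF1, another of its genes, was not called, at 31.8 and 43.6 CPM in N and 56.8 and 89.9 in aRG. Of 13 condensation and DNA damage partners of MCPH1 12 were tested and 9 fell (median −2.38), where MCPH1 did not pass. Its leading members were the condensin subunits NCAPH (−4.61, SE 0.34, adjusted p = 7.48e-06) and SMC4, which was at 34.1 and 26.4 CPM in N and 556 and 409 in aRG.

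Most centrosome partners did not pass the test. Of 19 centriole duplication partners 4 fell (median −0.32), namely POC1A, a centriole wall protein (−3.21, SE 0.45, adjusted p = 0.00062), PLK4 (−2.74), SASS6 (−2.05) and CEP192 (−1.10). Of 19 genes of the pericentriolar material and its satellites 17 were tested and 4 fell (median −0.47): SPAG5, a spindle protein (−2.47, SE 0.36, adjusted p = 0.000739), NDE1, a dynein regulator (−3.29), CEP72 and NEDD1. PCNT, which encodes pericentrin, a scaffold that binds CDK5RAP2, was at 151 and 168 CPM in N and 155 and 133 in aRG, and the groups overlapped (0.15, SE 0.24, adjusted p = 0.8). PDE4DIP, which encodes the CDK5RAP2 paralogue myomegalin, was listed at 0 on the chimpanzee genome. On the human genome it was at 107 and 133 CPM in N and 57.5 and 64.8 in aRG and rose (0.97, SE 0.25, adjusted p = 0.0207). Of 13 spindle pole partners 11 were tested and 4 fell (median −0.45). TPX2, an Aurora A activator (−4.23, SE 0.41, adjusted p = 5.39e-05), and AURKA (−4.49) led the falls. Of 21 genes of microcephalic dwarfism 8 fell (median −0.32), led by the replication licensing genes ORC1 (−5.68, SE 0.47, adjusted p = 1.70e-05) and CDT1 (−4.35). All 12 dividing-cell transcripts fell (median −5.71), with the smallest adjusted p for CCNB1, the mitotic cyclin (−5.58, SE 0.32, adjusted p = 1.79e-06), and MKI67 (−7.50). Some lists share genes, and whether they differ from each other was not tested.

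**Figure D4:**
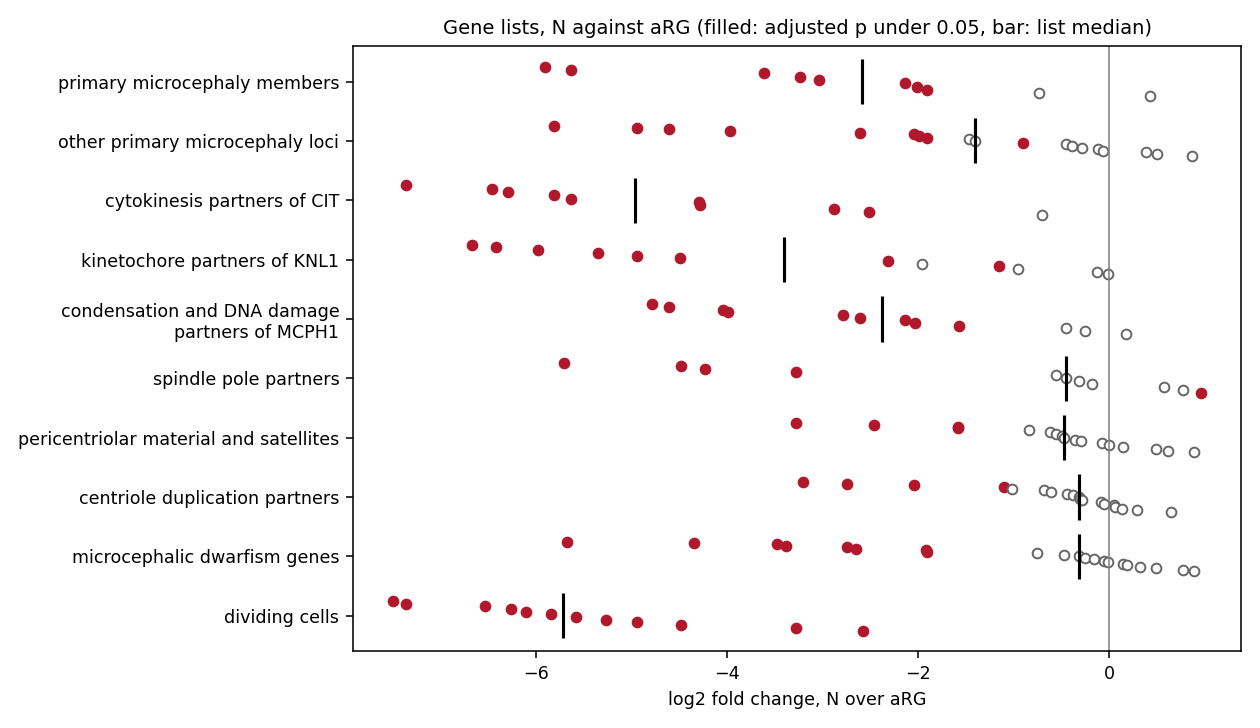
Log2 fold changes in N over aRG for the 10 genes and 9 related lists (each point is a gene, filled where the adjusted p is under 0.05 over all genes tested, and the bar is the list median). The medians lie between −5.71 for dividing-cell transcripts and −0.32 for centriole duplication partners, and 15 of 19 points of that last list are unfilled.

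The human genome table, counted from the same libraries, gave the same number of calls for the 10 genes in each comparison. In N, 8 were lower against aRG, 7 against bRG and 2 against bIP. Of the 16353 genes tested on the human genome, 1568, 1076 and 561 were lower in that order. In bIP, 9 of the 10 were lower against aRG and 5 against bRG, and 607 and 259 of all genes. In bRG against aRG 0 of the 10 were lower, and 1 of all genes. Read counts of the 10 genes on the chimpanzee genome were 1.00 to 2.09 times those on the human genome, where the ratio over all shared symbols was 1.70 to 1.74 per library. The lowest ratio was of KNL1, which had 55 and 34 reads in N on the chimpanzee genome and 52 and 34 on the human genome, against 3125 and 1925 in aRG on the chimpanzee genome and 1786 and 1121 on the human genome. Over 60 pairs of fold changes the largest difference between genomes was 0.70 on the log2 scale, for KNL1 in N against aRG. STIL in N against bIP was on opposite sides of 0 (0.20 on the chimpanzee genome, −0.05 on the human genome, neither called).

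**Figure D5:**
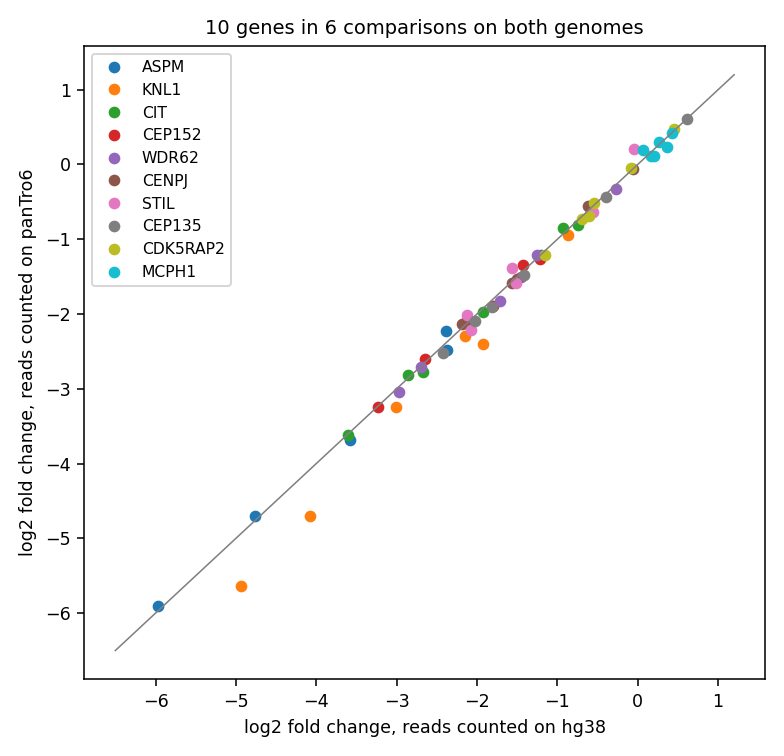
Log2 fold changes of the 10 genes in the 6 comparisons with reads counted on hg38 (horizontal axis) and on panTro6 (vertical axis), with the line of equality. Points of KNL1 lie below the line by up to 0.70, and the point farthest from it among the other genes is STIL in N against bIP.

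Overlapping genes could add reads to a row, since strand was not marked. In the RefSeq annotation of assembly NHGRI_mPanTro3-v2.0, which is not the build of the counts and served only to find overlaps, ANGPT2, an angiopoietin gene, shares part of the span of MCPH1. It averaged 13.7 ± 2.47 CPM in N, 16.7 ± 3.69 in bIP, 20.1 ± 4.36 in bRG and 21.4 ± 2.95 in aRG (SD, n = 2 each), the reverse order to MCPH1. The row named MCPH1-AS1 averaged 32.4 ± 6.27 CPM in N and 36.2 ± 2.39 in aRG. CENPJ overlaps RNF17, a germline gene, which averaged 0.816 to 1.90 CPM over the populations. CIT holds the microRNA gene MIR1178, whose row was at 0. ASPM, CDK5RAP2, CEP135, CEP152 and KNL1 overlap pseudogene, long noncoding or small nucleolar RNA loci that have no row of that name in the count table, and further loci at MCPH1 have none either. For WDR62 and STIL no overlap was listed. How reads of such pairs were assigned was not tested.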

How the data were processed

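The authors deposited whole-number read counts per gene symbol for 8 libraries, in 1 table per genome. Per the submitters' processing notes reads were aligned with STAR and the builds were panTro6 and hg38. Not given in the sources used here are the STAR version, the annotation, the counter and its strand setting. The row with no gene name (0.00545% to 0.00771% of counts) was left out. The counts may hold PCR copies and both reads of a pair, so halved counts were also tried.

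Genes were filtered with filterByExpr (35382 of 60583 kept), scaled by TMM and fitted as negative binomial counts with all 4 populations together (edgeR 4.0.16, glmQLFit and glmQLFTest, R 4.3.3; 4 residual degrees of freedom, common biological coefficient of variation 0.629). Tests were two-sided. Benjamini-Hochberg adjustment ran over all genes tested, separately in each of 6 comparisons (threshold 0.05). SEs and 95% intervals follow from the F statistic of each gene. DESeq2 1.42.0 (Wald test) was an alternative. The fit was tested on simulated counts. No library pair agreed within counting noise (chi-square per gene of 40.6 to 63.5 within populations).

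The 10 genes, the lists and the rule for named genes (in each list the 2 smallest adjusted p in N against aRG and any gene called against the majority) were set with earlier results of these data known. Genes named beside those were chosen after their values were seen. A few genes that the rules name are not reported here. The levels in each library, and the values within libraries of the same number, are TMM-scaled CPM and their log2 ratios.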

Additional observations from a re-analysis of the deposited data

How the results depend on the processing

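Each comparison was refitted under 14 other settings. Counts of the 10 genes called lower were within 1.5 times the main count in all but the following. In N against bIP (2 genes) the count was 4 by DESeq2, 4 with no low-count filter, 4 with the replicate block and 1 when only the 2 populations were fitted, and 1 to 3 when single libraries were left out. In bIP against bRG (5) it was 8 with no filter and 1 to 4 when single libraries were left out, in bIP against aRG (9) 5 to 7, and in bRG against aRG (0) it was 1 with no filter. In N against aRG (8) the count was 7 to 9 under every setting. No gene of the 10 was called higher in any of the fits.

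Of 840 refitted log2 fold changes of the 10 genes, 781 kept their direction and their side of the threshold, 29 lost a call, 24 gained one and 6 changed sign. The 6 were uncalled in both: STIL in N against bIP (−0.050 on the human genome, −0.37 without N replicate 2 and 0.62 without N replicate 1), CEP135 in N against bIP (−0.39 without N replicate 2 and 1.203 without N replicate 1), CDK5RAP2 in N against bRG (0.11 without N replicate 1, 0.03 without bRG replicate 1 and −0.22 without N replicate 2) and CENPJ in bRG against aRG (0.055 without aRG replicate 1 and −0.20 without aRG replicate 2). The cause was not tested.

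Replicate numbers are given in the titles, and the labels do not say what they mark. The samples are listed in 2 consecutive blocks, 1 for each number. Taken over all genes, same-numbered libraries deviated together only weakly (r = 0.05 to 0.10 over 6 pairs of populations). On the third principal component of log2 CPM, however, libraries numbered 1 (41.2 to 98.8) and 2 (−81.8 to −31.3) were apart. The main fit has no term for the number. With the replicate block, which adds one, 9 of the 10 were lower in N against aRG, where CDK5RAP2 joined (adjusted p = 0.0362). The block gave 8 in N against bRG, 9 in bIP against aRG, 7 in bIP against bRG and 0 in bRG against aRG. Of 35382 genes, it called 2347, 1704, 1115, 586 and 8 lower in that order. Over all genes, the number lower in N than in aRG was 1697, and 1222 to 2781 under the other settings. In N against bIP it was 524, and 222 to 1532, in N against bRG 1200, and 800 to 2173, in bIP against aRG 529, and 286 to 1206, in bIP against bRG 203, and 84 to 694, and in bRG against aRG 1, and 0 to 47. The number higher in N than in aRG was 1724, and 950 to 2613. The median log2 fold change of all genes in N against bRG was −0.11 in the main fit, −0.20 with no low-count filter and −0.29 without N replicate 2. In N against bIP it was −0.10 in the main fit, −0.12 with DESeq2 size factors and −0.25 without N replicate 1. In libraries left alone in a population the spread was assumed equal to that of the others. Depth limits KNL1 most, at 34 reads in an N library.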

Other observations

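In bIP against aRG, where 1.50% of all genes tested were lower, genes of cytokinesis, the kinetochore and condensation fell as well. Of the 10 cytokinesis partners of CIT 9 fell, of the 12 kinetochore partners of KNL1 6 fell, and of 12 condensation and DNA damage partners of MCPH1 7 fell, with medians of −2.93, −1.95 and −1.80. KIF23, a kinesin of the central spindle, was at 8.08 and 16.3 CPM in bIP and 194 and 134 in aRG (−3.75, SE 0.42, adjusted p = 0.000722). Of 19 centriole duplication partners 1 fell, POC1A (−3.02, SE 0.45, adjusted p = 0.00329), and of 17 tested genes of the pericentriolar material and satellites 2 fell, SPAG5 and CEP72. Of 19 further microcephaly loci tested 6 fell, among them CENPE, a kinetochore kinesin, at 34.3 and 42.7 CPM in bIP and 448 and 296 in aRG (−3.27, SE 0.35, adjusted p = 0.000612). Adjusted p-values are from edgeR's quasi-likelihood test over all genes, and this comparison shares the aRG libraries with N against aRG.

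In N against bIP, where 1.48% of all genes tested were lower, 5 of the 12 kinetochore partners of KNL1 and 6 of the 10 cytokinesis partners of CIT fell.

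Of the list genes, 7 were listed at 0 in all 8 libraries on the chimpanzee genome but had reads on the human genome. TACC3, a spindle protein bound by Aurora A, was 1 of them, at 3.80 and 5.90 CPM in N and 378 and 387 in aRG on the human genome (−6.30, SE 0.40, adjusted p = 7.35e-06). Over all genes, 286 symbols were at 0 on the chimpanzee genome and at 10 CPM or more on the human genome.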
